A study of Bos taurus with 54 samples.

Results

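The BCL2 family decides at the outer mitochondrial membrane whether a cell survives or dies by apoptosis. The 10 members described here were chosen by symbol, and all 10 were among the 32637 genes counted in calf blood. They comprise 4 pro-survival genes (BCL2, BCL2L1, MCL1 and BCL2A1), 2 effectors (BAX and BAK1) and 4 BH3-only genes (BCL2L11, BID, BBC3 and PMAIP1). Whole blood was collected from Holstein male calves before heat exposure in the morning (thermoneutral control) and again in the evening, after 12 h of heat stress in climate-controlled rooms. Red cells were lysed, so that the RNA came mainly from leukocytes, and 3′ mRNA-Seq libraries were made with SMART-Seq v4 3′ DE (Takara) and QuantSeq (Lexogen), with both kits for 24 of the RNA samples compared. Each kit had 13 control and 13 heat stress libraries in the comparison, of which 12 animals had both, and the library of animal 20 was left out of it. Heat exposure and time of day changed together, so that their effects cannot be told apart. Times follow the sample labels. The study's sample list, read in order of animal number, has the times exchanged for every calf in which it can be compared with the labels, so the direction of every change given here rests on the labels.

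Pro-survival members hold the effectors BAX and BAK1 inactive. BH3-only proteins are produced or activated under stress and either block the pro-survival members or activate the effectors, which then open the membrane and release cytochrome c. In leukocytes the balance differs by cell type: neutrophils are short-lived and depend on MCL1, a protein with rapid turnover, whereas resting lymphocytes rely more on BCL2.

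Gene counts per library ranged from 5140595 to 20699030 in Takara and from 4516761 to 58521751 in Lexogen. Levels are given as CPM, the count of a gene scaled to a common library total. A 3′ library yields one fragment per transcript, so CPM was not divided by gene length, although capture and priming may still differ between genes. A gene was called when its adjusted p in edgeR's quasi-likelihood test was under 0.05. Fold changes between times came from the same test, in which libraries were scaled by a further factor (TMM). They need not equal the ratios of CPM. Of the 10 members, 9 were tested in Takara and 10 in Lexogen, since BAX was too low in Takara. In Takara, 3 members were called higher after heat stress (MCL1, BBC3 and PMAIP1), where 18.4% of all 12620 tested genes were called higher, and 1 was called lower (BID), where 10.5% were. In Lexogen, 1 of the 10 members was called higher (MCL1), where 5.09% of 11108 tested genes were, and 0 were called lower, where 0.459% were. In the same Lexogen test, 1 member was lower at an unadjusted p under 0.05 (BCL2A1), and DESeq2 called 0 lower. The median log2 fold change of the tested members was -0.09 in either kit, beside -0.05 for all genes tested in Takara and -0.08 in Lexogen. Each median lay near that of all genes tested in its kit. Single members moved in opposite directions, so the median does not place the family as a whole.

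**Figure D1:**
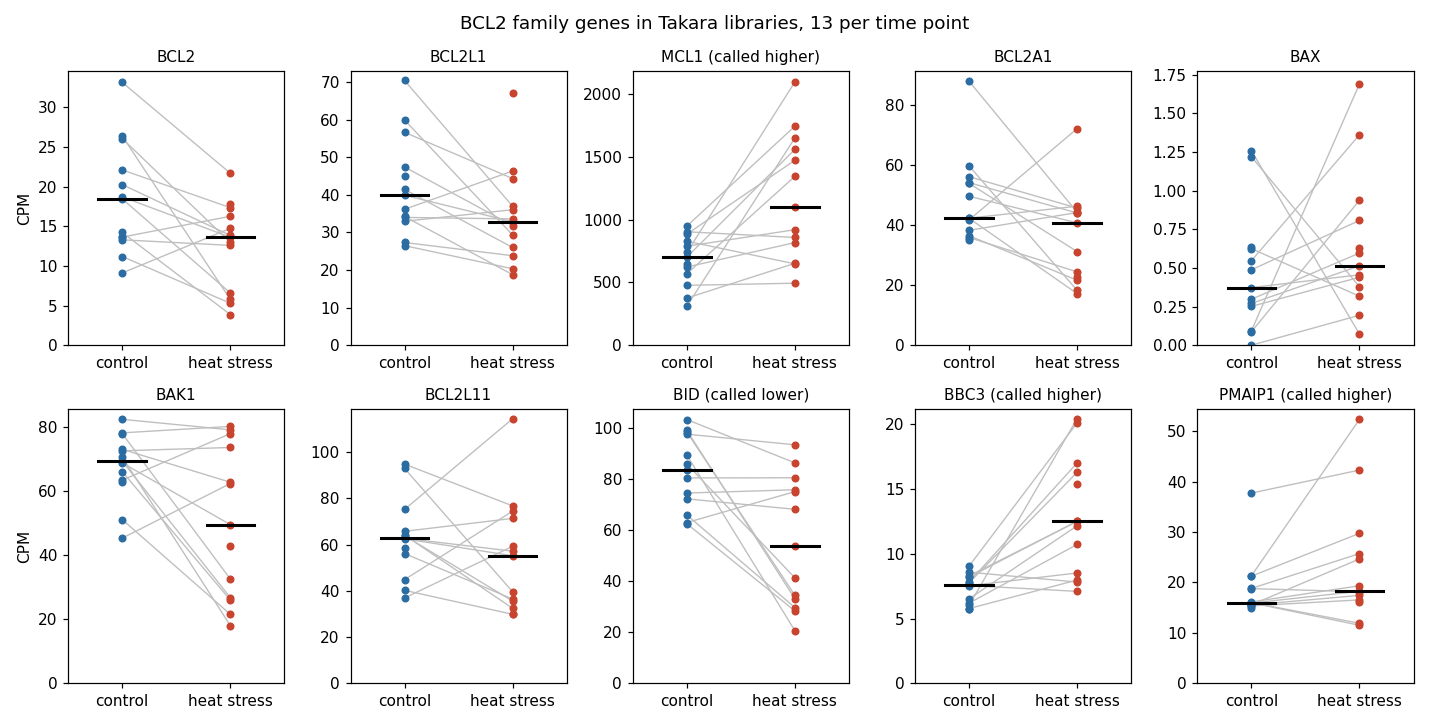
CPM of each member in the Takara libraries, with 13 control and 13 heat stress libraries. Points are libraries, gray lines join the libraries of 1 animal and black bars are medians; for MCL1, 7 of 13 heat stress libraries lay above every control library.

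Among the pro-survival genes, MCL1 was by far the most abundant member in both kits. Its median share of the summed CPM of the 10 members was 66.8% in Takara control libraries and 80.5% after heat stress, and 73.4% and 82.5% in Lexogen. The gene lies at chr3:20129373-20134013 of the ARS-UCD2.0 assembly. In Takara, the control libraries had a lowest, median and highest MCL1 level of 309, 700.4 and 947 CPM, and the heat stress libraries 493, 1101 and 2094 CPM. Of the 13 heat stress libraries, 7 exceeded every control library, while the lower ones overlapped the control range. MCL1 rose 2.30-fold (log2 fold change 1.20, SE 0.27, adjusted p = 0.00175), and its CPM was higher after heat stress in 10 of 12 animals. The ratio of heat stress to control within an animal ran from 0.782 to 5.33, with a median of 1.70. In Lexogen, MCL1 levels were 345, 531 and 718 CPM in control libraries and 420, 842 and 1674 CPM after heat stress. Again 7 of 13 heat stress libraries lay above the control range. The Lexogen increase was 1.82-fold (log2 fold change 0.87, SE 0.21, adjusted p = 0.00889), in 10 of 12 animals, and it was no longer called with the animal as a block (log2 fold change 0.76, adjusted p = 0.0697). Animals 12 and 41 were the ones with a lower MCL1 level after heat stress, in both kits. The kits shared 24 of their 26 RNA samples, so the Lexogen values mostly repeat the library step on the same RNA and are not an independent set of animals.

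The other 3 pro-survival genes were not called in either kit. BCL2, the founding member and a survival factor of lymphocytes, had a control range of 9.11, 18.5 and 33.2 CPM in Takara and a heat stress range of 3.86, 13.6 and 21.7 CPM. All but 1 of the 13 heat stress libraries lay below the control median, yet most remained inside the control range. The log2 fold change of BCL2 was -0.40 (SE 0.22, adjusted p = 0.161), and its CPM was higher after heat stress in 2 of 12 animals. In Lexogen it was -0.88 (SE 0.48, adjusted p = 0.370), and the heat stress library of animal 18 had a BCL2 count of 0, which allows up to 0.651 CPM for counting error alone. BCL2A1, an NF-kappaB target expressed in activated myeloid and lymphoid cells, had medians of 42.2 CPM before and 40.7 CPM after heat stress in Takara. In Lexogen the BCL2A1 medians were 65.7 and 40.4 CPM, and the log2 fold changes were -0.22 (SE 0.17, adjusted p = 0.327) in Takara and -0.59 (SE 0.28, adjusted p = 0.265) in Lexogen. In Takara 6 of 13 heat stress libraries, and in Lexogen 3, lay below every control library of BCL2A1, and the others overlapped the control range. BCL2L1, which encodes BCL-XL, had medians of 39.9 and 32.8 CPM in Takara, with a log2 fold change of -0.09 (SE 0.17, adjusted p = 0.710). Its 95% interval of -0.46 to 0.27 leaves room for a modest change in either direction.

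Of the effectors, which form the pore, BAK1 was readily counted and BAX was not. BAK1 levels in Takara were 45.4, 69.4 and 82.5 CPM in control libraries and 18.1, 49.6 and 80.3 CPM after heat stress. The heat stress libraries reached much further down, with 6 of 13 below every control library, but the others stayed within the control range. BAK1 was not called in Takara (log2 fold change -0.27, SE 0.15, adjusted p = 0.166) or in Lexogen (log2 fold change -0.75, SE 0.42, adjusted p = 0.379). BAX had 174 counts over all 27 Takara libraries and 1265 over the 27 Lexogen libraries. In Takara it reached 10 counts in 3 libraries, and it had 0 in the control library of animal 36, which allows up to 0.584 CPM. In Lexogen, BAX medians were 2.19 CPM before and 2.43 CPM after heat stress, and the log2 fold change was -0.28 (SE 0.65, adjusted p = 0.889). Its sign rested on the control library of animal 19 with 28.1 CPM, and was 0.57 without it. BAX, at chr18:55530787-55534997, lies wholly within the span of TULP2 at chr18:55478718-55539116, so that reads touching both genes may not have been assigned to either and the BAX level is uncertain. In Takara, TULP2 had 2515 unstranded and 88943 antisense counts, while BAX had 165 sense and 9 antisense counts. The antisense counts of TULP2 are therefore no measure of BAX reads left unassigned. BCL2L11 also overlaps the protein-coding gene ACOXL, BCL2L1 a long noncoding RNA gene and BID a tRNA gene. The same limit may apply to their levels, and its size was not tested for any member.

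In Takara the BH3-only genes held most of the called members, in both directions, whereas the member called in Lexogen was MCL1. BBC3, which encodes PUMA and is a target of p53 and FOXO3, lies at chr18:54237254-54247394 and was the scarcest tested member in Takara. Its control libraries were tightly grouped at 5.72, 7.55 and 9.05 CPM, and the heat stress libraries had 7.10, 12.5 and 20.4 CPM. Of the 13 heat stress libraries, 9 lay above every control library and the rest fell in the control range. BBC3 rose 2.24-fold in Takara (log2 fold change 1.16, SE 0.21, adjusted p = 0.0005), in 10 of 12 animals. In Takara, 22.4% of the stranded BBC3 counts were antisense, and with sense counts the log2 fold change was 1.16 (adjusted p = 0.00096). In Lexogen, BBC3 levels were 7.49, 13.5 and 27.1 CPM in control libraries and 10.6, 25.1 and 78.4 CPM after heat stress. The Lexogen groups overlapped more, with 5 of 13 heat stress libraries above the control range. The Lexogen log2 fold change of 1.06 (SE 0.33, adjusted p = 0.0560, higher in 9 of 12 animals) was not called. It was called with sense counts (1.09, adjusted p = 0.0475), without the filter on low counts (1.05, adjusted p = 0.0268), with DESeq2 (1.10, adjusted p = 0.0202) and with animal 20 as heat stress (1.13, adjusted p = 0.0284), but with the animal as a block it was 0.64 (adjusted p = 0.406). Its adjusted p ranged from 0.0202 to 0.521 over the alternatives. It was also called when the heat stress library of animal 3, 19, 23, 32 or 41 or the control library of animal 12 or 14 was left out, with adjusted p from 0.0294 upward. Without the heat stress library of animal 15, the deepest of all, it was 0.79 (adjusted p = 0.181).

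PMAIP1, which encodes NOXA, a BH3-only protein that binds MCL1, had the smallest called increase. Its Takara levels were 15.0, 16.01 and 37.7 CPM in control libraries and 11.5, 18.3 and 52.3 CPM after heat stress. The medians lay close together, and 2 of 13 heat stress libraries exceeded the highest control library. PMAIP1 rose 1.54-fold (log2 fold change 0.62, SE 0.24, adjusted p = 0.0490), in 9 of 12 animals. This call was lost with total gene counts as library size (log2 fold change 0.32, adjusted p = 0.219) and without the filter on low counts (0.60, adjusted p = 0.0603). It was also lost in 18 of 26 fits that left out 1 library, namely those without any control library other than that of animal 7 and those without the heat stress library of animal 7, 15, 16, 18, 19 or 36, and the lowest value was 0.39 without the heat stress library of animal 18 (adjusted p = 0.152). In Lexogen the log2 fold change of PMAIP1 was 0.47 (SE 0.34, adjusted p = 0.533), and 0.14 without the heat stress library of animal 18.

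BID, which links death receptors to mitochondria once caspase-8 has cut it, was the member called lower. Its Takara levels were 62.4, 83.5 and 103 CPM in control libraries and 20.6, 53.6 and 93.3 CPM after heat stress. Of the 13 heat stress libraries, 7 lay below every control library and the other 6 overlapped the control range. With TMM scaling, BID had a fold change of 0.752 (log2 fold change -0.41, SE 0.14, adjusted p = 0.0246). Its CPM was higher after heat stress in 3 of 12 animals, with a median ratio within an animal of 0.659. In Lexogen the log2 fold change of BID was 0.35 (SE 0.38, adjusted p = 0.722). That positive value came with 1 heat stress library, animal 12, at 98.6 CPM, and it was -0.21 without this library. BCL2L11, which encodes BIM and is a main trigger of lymphocyte and neutrophil death, had Takara medians of 62.8 CPM before and 55.2 CPM after heat stress. Its log2 fold changes were 0.02 (SE 0.18, adjusted p = 0.938) in Takara and -0.05 (SE 0.25, adjusted p = 0.950) in Lexogen, and in Takara 5 of 13 heat stress libraries lay below and 1 above the control range.

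**Figure D2:**
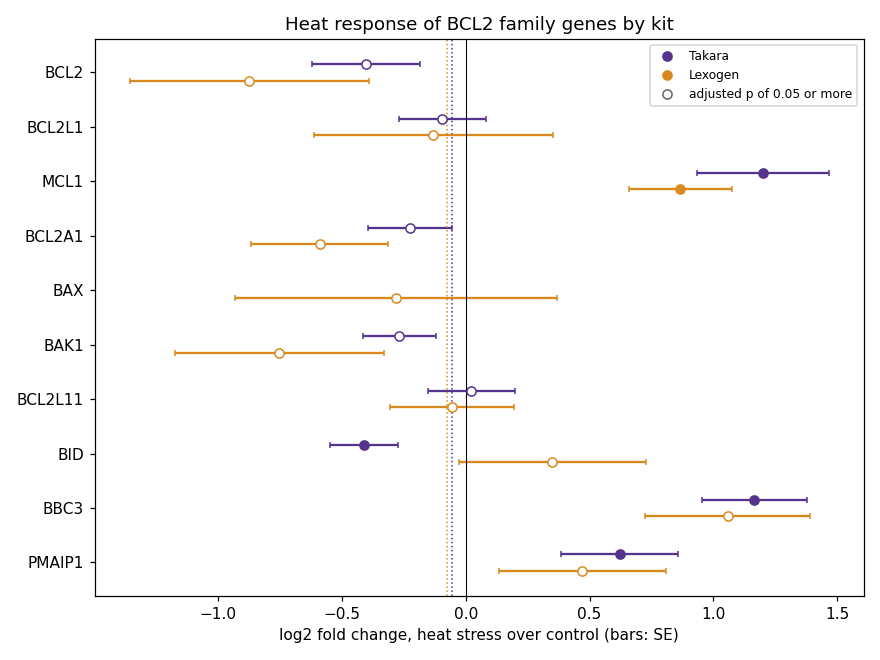
Log2 fold change of each member between heat stress and control in both kits, with SE bars; filled points were called and dotted lines are the medians of all genes tested. MCL1, BBC3 and PMAIP1 lie to the right in both kits, and BID lies on opposite sides at -0.41 in Takara and 0.35 in Lexogen.

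In the plot of fold changes by kit, Lexogen bars were wider for every member tested in both kits except MCL1. Whether the heat response itself differed between the kits was tested in 24 RNA samples with libraries of both, with the RNA sample as a block. The edgeR test called 0 of 10 members and 0% of 13354 genes, with 0 members and 526 genes at an unadjusted p under 0.05. For BID, the Lexogen response minus the Takara response was 0.58 on the log2 scale (SE 0.39, adjusted p = 1). The different calls in the 2 kits are thus not shown to be different responses.

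**Figure D3:**
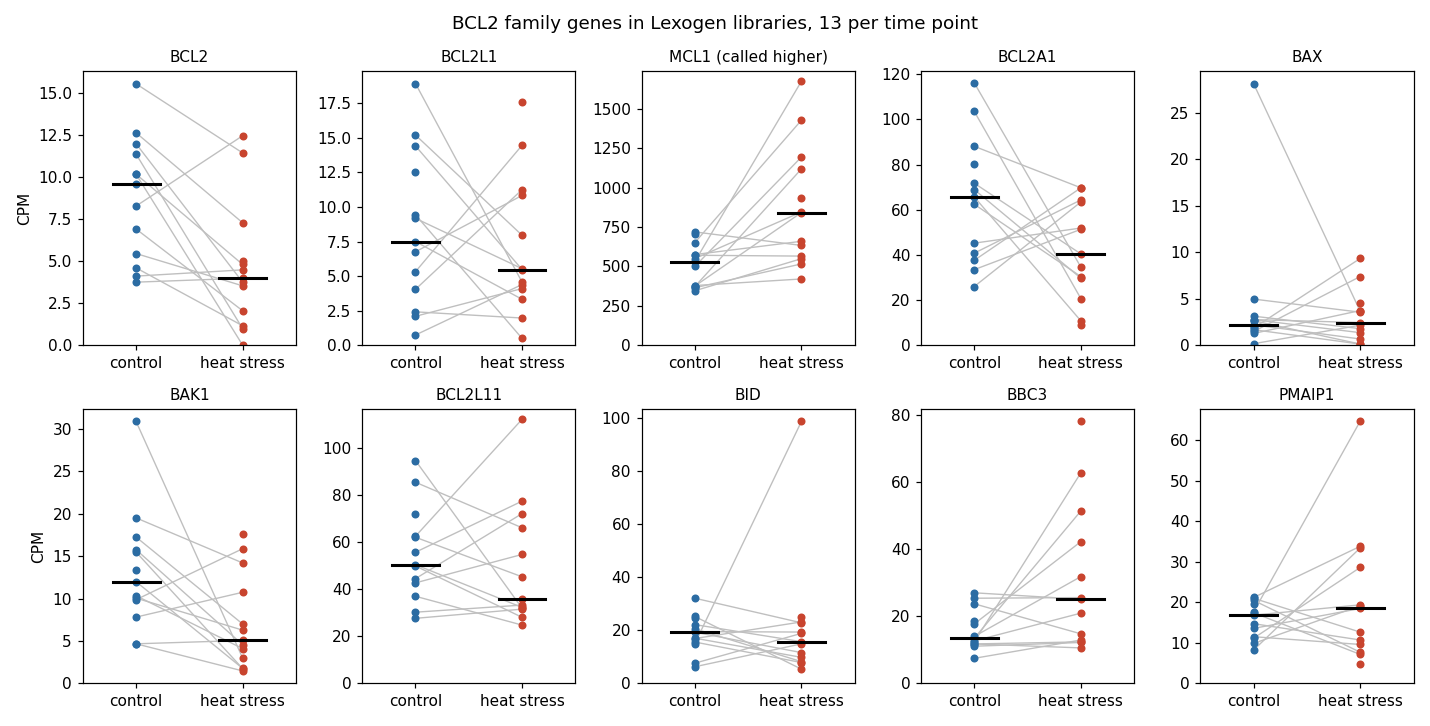
CPM of each member in the Lexogen libraries, drawn as for Takara. The heat stress library of animal 12 stands apart for BID at 98.6 CPM, and 7 of 13 heat stress libraries lay above the control range of MCL1.

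The levels of several members did differ between the kits within the same RNA sample. In the edgeR test with the RNA sample as a block, 3 of 10 members were called higher in Lexogen (BCL2A1, BAX and BBC3), where 26.3% of all genes were, and 4 were called lower (BCL2, BCL2L1, BAK1 and BID), where 45.3% were. BAK1 was 5.39-fold higher in Takara (mean 59.7 CPM, against 10.3 CPM in Lexogen, adjusted p = 1.67e-12), and was higher there in all 24 RNA samples. BCL2L1 was 4.99-fold higher in Takara (adjusted p = 1.14e-09), BID 3.18-fold (adjusted p = 1.23e-08) and BCL2 2.20-fold (adjusted p = 8.42e-05). BBC3 was 2.62-fold higher in Lexogen (mean 24.3 CPM, against 10.1 CPM in Takara, adjusted p = 5.35e-10), in 23 of 24 RNA samples, and BAX was 6.05-fold higher (adjusted p = 1.48e-05). Over all genes, the median log2 level in Lexogen minus that in Takara was -0.48 with TMM scaling and -0.77 with total gene counts. The latter scaling, added after the data were seen, ended the BCL2A1 call (0.18, adjusted p = 0.296, against 0.47, adjusted p = 0.0056) and gave a lower MCL1 in Lexogen (-0.32, adjusted p = 1.72e-05, against -0.03, adjusted p = 0.693).

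The order of the members thus depended on the kit. By median control level, Takara gave MCL1 (700.4 CPM), BID (83.5), BAK1 (69.4), BCL2L11 (62.8), BCL2A1 (42.2), BCL2L1 (39.9), BCL2 (18.5), PMAIP1 (16.01), BBC3 (7.55) and BAX (0.373). From BID to PMAIP1 each Takara control range overlapped the next, while BBC3 lay below PMAIP1 and BAX below BBC3 with no overlap. In Lexogen the order was MCL1 (531 CPM), BCL2A1 (65.7), BCL2L11 (50.5), BID (19.3), PMAIP1 (16.8), BBC3 (13.5), BAK1 (12.0), BCL2 (9.60), BCL2L1 (7.50) and BAX (2.19). From BCL2A1 to BAX each Lexogen control range overlapped the next. MCL1 stood clear of every other member in both kits.

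Samples fell into 2 runs of sample numbers, and the heat response was compared between them. In Takara, MCL1 had a log2 fold change of 1.06 in run 1 (adjusted p = 0.0278) and 1.41 in run 2 (adjusted p = 0.0481). BBC3 had 1.17 in run 1 (adjusted p = 0.00789) and 1.17 in run 2 (adjusted p = 0.0560). PMAIP1 had 0.84 (adjusted p = 0.0487) and 0.37 (adjusted p = 0.537), and BID had -0.48 (adjusted p = 0.0889) and -0.31 (adjusted p = 0.329). Each of these 4 genes thus had the same direction in both runs, and MCL1 was called in either. In Lexogen, MCL1 had 1.00 in run 1 (adjusted p = 0.0366) and 0.65 in run 2 (adjusted p = 0.450), and PMAIP1 had 0.75 (adjusted p = 0.574) and 0.067 (adjusted p = 0.977). By edgeR's test of the difference between runs, 0 members were called in Takara, where 2.58% of genes were, and 0 in Lexogen, where 0.018% were. At an unadjusted p under 0.05, 1 member differed between the runs in Takara (BCL2L1) and 0 in Lexogen.

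Markers of blood cell types were measured beside the members, because whole blood mixes cells with different sets of BCL2 family genes, and fewer cells of a type and less RNA per cell cannot be told apart. Of 10 neutrophil markers, 9 were tested in Takara, and 8 were called higher and 0 lower. In Lexogen 6 of 9 tested were called higher, and 0 with the animal as a block. The summed neutrophil marker level in Takara was 4742, 14639 and 21256 CPM in control libraries and 5660, 43043 and 78319 CPM after heat stress, and it was higher in 10 of 12 animals. In Lexogen it was 1479, 4043 and 7665 CPM, and 2187, 11276 and 32444 CPM. S100A12 was the most abundant marker in both kits, with a Takara median of 7063 CPM before and 25805 CPM after heat stress. MMP8 was at 0 in the control libraries of both kits and the heat stress libraries of Lexogen.

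Other lineages moved less. Of 10 T cell markers tested in Takara, 4 were called lower (CD3D, CD3E, CD3G and CD247), and the median summed level was 1584 CPM before and 960.3 CPM after heat stress (ranges 1165 to 2484 and 511 to 2073), led by CD3D. Of 8 B cell markers, 1 was called lower (BLK), or 4 with the animal as a block, and the median sum was 1017 CPM and then 665 CPM, led by MS4A1. Of 7 monocyte markers, 3 were called higher (CD163, CD68 and VCAN), or 1 with the animal as a block, and the median sum was 359 CPM and then 503 CPM, led by CD68. In Lexogen, 0 of 9 T cell, 0 of 8 B cell and 0 of 6 monocyte markers tested by edgeR were called, and at an unadjusted p under 0.05 these counts were 0, 0 and 3. The Lexogen median sums before and after heat stress were 512 and 390 CPM for T cell, 522 and 445 CPM for B cell and 251 and 265 CPM for monocyte markers. Of 4 platelet markers tested in either kit 0 were called, with 0 at an unadjusted p under 0.05, and the Takara median sum was 2490.2 CPM and then 2079 CPM, led by PF4. Of 2 erythroid markers tested in either kit 0 were called, with 0 in Takara and 1 in Lexogen at an unadjusted p under 0.05, and HBB led them with Takara medians of 1715 and 910.1 CPM, while HBA and HBA1 were at 0 in Takara control libraries.

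**Figure D4:**
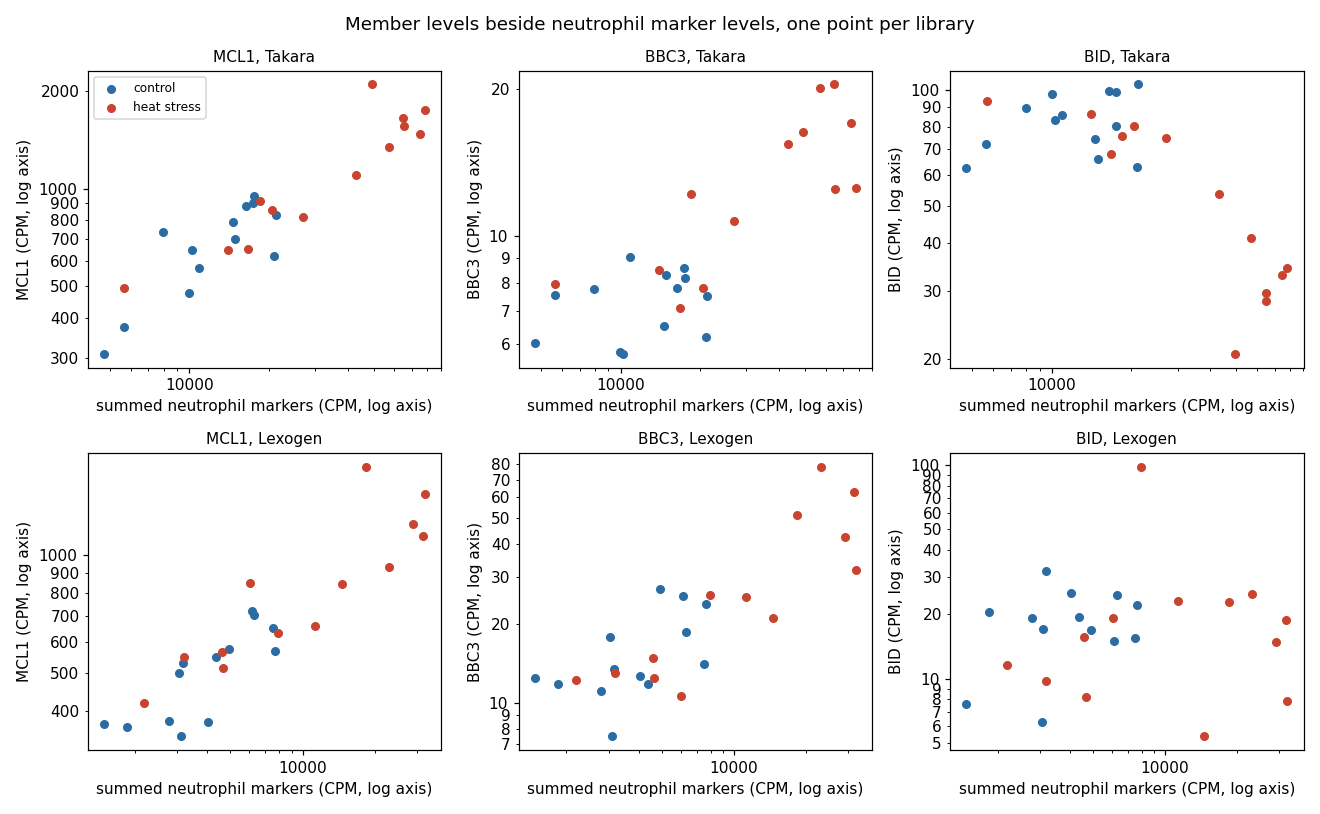
CPM of MCL1, BBC3 and BID against the summed CPM of 10 neutrophil markers in 13 control and 13 heat stress libraries of each kit, on log axes, with 1 point per library. In Takara, MCL1 and BBC3 are high and BID is low in the libraries with the most marker RNA.

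The plot of member levels against neutrophil markers sets these values side by side. In Takara, 8 of 13 heat stress libraries had a summed marker level above every control library, and these 8 included all 7 libraries with MCL1 above the control range, 8 of the 9 with BBC3 above it and all 7 with BID below it. After centering on the mean of each time, the Spearman rho with the marker sum over 26 Takara libraries was 0.92 for MCL1, 0.78 for BBC3, -0.58 for BID, -0.52 for BAK1 and 0.14 for PMAIP1. Over 26 Lexogen libraries it was 0.87 for MCL1 and 0.80 for BBC3, but 0.21 for BID, 0.12 for BAK1 and -0.26 for PMAIP1, while BCL2A1 had -0.53 there and -0.25 in Takara. These correlations are descriptions chosen after the values were seen, and the part of neutrophil RNA in the changes of the members was not tested.

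The genes most alike to each of the 9 members tested in Takara, thus without BAX, were sought among 10924 other genes with a symbol, over the 26 libraries and centered in the same way. For MCL1 they were BIN2 (Spearman rho 0.98), IQGAP1 (0.97) and PNRC1 (0.97). BBC3 was most like ATP6V0C (0.92), ITPRIPL2 (0.91) and OGFRL1 (0.91), and BAK1 was most like CD74 (0.90), CIITA (0.87) and UBE2S (0.87), the first 2 being genes of antigen presentation. BID was most like COPS7B (0.88), MOV10 (0.88) and VARS1 (0.87). BCL2L11 was most like the inflammasome gene NLRP3 (0.84), then DHRS3 (0.83) and ACOD1 (0.82). BCL2A1 was most like RPIA (0.85), HIBADH (0.84) and MRPL50 (0.83), and BCL2L1 was most like ARPP19 (0.85), MTURN (0.84) and PARD3B (0.81). The weakest likenesses were those of BCL2 with LGMN (0.76), ZNF782 (0.74) and ATP5IF1 (0.71) and of PMAIP1 with UQCRB (0.75), COA4 (0.74) and NSL1 (0.72). Among the members themselves, MCL1 and BBC3 had a rho of 0.81, BAK1 and BID 0.77, and BID and BBC3 -0.68. Across libraries of the same time, MCL1 and BBC3 thus varied together, and so did BAK1 and BID.

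Further genes of the pathway were described from 4 lists, and their counts stand beside 18.4% of all tested genes called higher and 10.5% lower in Takara, and 5.09% and 0.459% in Lexogen. Of 13 other BCL2 family genes, 9 were tested in Takara, and 5 were called higher and 1 lower, with a median log2 fold change of 0.57. BCL2L15, a little-studied relative, rose most in Takara (log2 fold change 1.73, SE 0.37, adjusted p = 0.00152, 10 of 12 animals) and also rose in Lexogen (1.40, SE 0.34, adjusted p = 0.00906, or 0.0721 with the animal as a block). The mitophagy receptors BNIP3L (1.25, SE 0.25, adjusted p = 0.000943) and BNIP3 (1.07, SE 0.29, adjusted p = 0.00794) and the BH3-only gene BIK (0.87, SE 0.26, adjusted p = 0.013) rose in Takara. BNIP3 was scarce there, with means of 2.64 CPM before and 4.28 CPM after heat stress. It was too low to be tested in Lexogen, where the means were 1.01 and 0.618 CPM. BNIP3L (0.70, adjusted p = 0.172) and BIK (1.03, adjusted p = 0.527) were tested in Lexogen by edgeR and not called. In Lexogen 1 of 7 tested genes of this list was called higher and 0 lower, with 2 higher and 0 lower at an unadjusted p under 0.05.

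Downstream of the pore, 4 of 19 apoptosome and caspase genes were called higher in Takara, near the share of all genes, and 0 lower, with a median log2 fold change of 0.12. APAF1, the apoptosome scaffold, was among those that rose (log2 fold change 0.71, SE 0.16, adjusted p = 0.00212). XIAP, an inhibitor of caspases, rose in Takara (0.66, SE 0.23, adjusted p = 0.0344) and in Lexogen (0.80, SE 0.22, adjusted p = 0.0262), and neither call held with the animal as a block (adjusted p = 0.103 and 0.108). In Lexogen, XIAP was the 1 gene called of 18 tested, with 2 higher and 1 lower at an unadjusted p under 0.05.

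In the death receptor list, 5 of 11 tested genes were called higher in Takara and 1 lower, with a median log2 fold change of 0.20. The receptors TNFRSF1A (1.22, SE 0.26, adjusted p = 0.00152) and FAS (1.04, SE 0.26, adjusted p = 0.00442) rose, as did the caspase-8 inhibitor CFLAR (0.76, SE 0.17, adjusted p = 0.00161) and the adaptor FADD (0.60, SE 0.16, adjusted p = 0.00553). TNFSF10, which encodes the ligand TRAIL, fell in Takara (-0.39, SE 0.14, adjusted p = 0.0403) and in Lexogen (-0.76, SE 0.22, adjusted p = 0.0364, or 0.0645 with the block), and in Takara its CPM was higher after heat stress in 1 of 12 animals. By edgeR in Lexogen 0 of 11 genes were called higher and 1 lower, with 3 higher and 1 lower at an unadjusted p under 0.05.

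Among 11 regulators of the family, 5 were called higher and 2 lower in Takara, with a median log2 fold change of 0.28. DDIT3 (1.08, SE 0.22, adjusted p = 0.000929) and ATF4 (0.88, SE 0.18, adjusted p = 0.00113), transcription factors of the integrated stress response, each rose in 11 of 12 animals. FOXO3, which can drive BBC3 and BCL2L11, rose in Takara (0.98, SE 0.23, adjusted p = 0.00291) and in Lexogen (1.16, SE 0.22, adjusted p = 0.00134), whereas its relative FOXO1 fell in Takara (-0.61, SE 0.14, adjusted p = 0.00277). In Lexogen ATF4 was the other of 2 genes called higher (0.70, SE 0.17, adjusted p = 0.0103, or 0.167 with the block), and 0 of 11 were lower, also at an unadjusted p under 0.05.

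**Figure D5:**
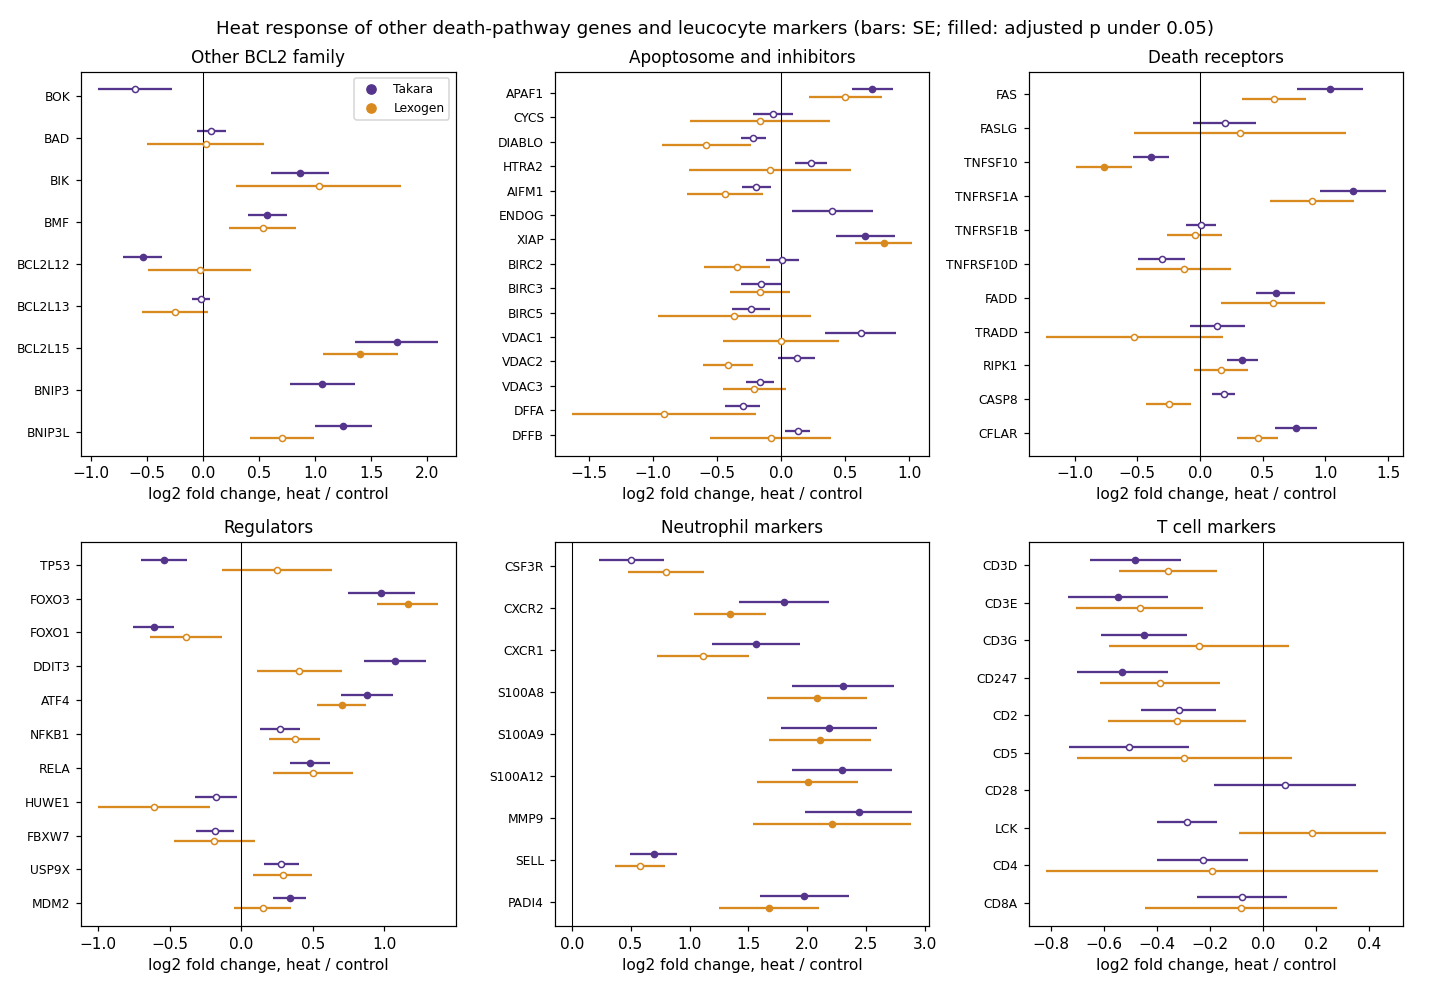
Log2 fold change between heat stress and control, with SE bars, of tested genes of 4 death pathway lists and of the neutrophil and T cell markers in both kits; filled points were called, and the caspase genes of the apoptosome list are not drawn. BCL2L15 (1.73 in Takara) has the largest value of the pathway genes drawn, and all 9 tested neutrophil markers lie to the right of 0.

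In the plot of the lists, the called pathway genes mostly lay to the right, as did the neutrophil markers, and the part of the latter in these changes was not tested. Scaling also bore on the directions in Takara. With total gene counts in place of TMM, the median log2 fold change of all genes moved from -0.05 to -0.27, and the calls moved from 2325 higher and 1321 lower to 1303 higher and 2185 lower. Under that scaling MCL1 (log2 fold change 0.81, adjusted p = 0.00839), BBC3 (0.83, adjusted p = 0.00134) and BID (-0.58, adjusted p = 0.0329) kept their edgeR calls. PMAIP1 did not. The increases of MCL1 and BBC3 were smaller than with TMM, and the decrease of BID was larger. Treating the library of animal 20 as a control, which the labels do not do, left 0 members and 0 genes called by edgeR in Takara (4 members and 3804 genes at an unadjusted p under 0.05), with MCL1 at 0.81 (adjusted p = 0.102) and BBC3 at 0.90 (adjusted p = 0.0553).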

How the data were processed

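The authors trimmed and filtered forward reads, mapped them to ARS-UCD2.0 and deposited raw counts of uniquely mapped reads per gene. Per the submitters' processing notes, they used FastQC 0.11.9, MultiQC 1.14, Trimmomatic 0.39 and STAR 2.7.10b. The unstranded count was used here, and sense counts as an alternative. Reads outside genes (unmapped, multimapped, featureless or ambiguous) made up 32.8% to 57.9% of a library in Takara and 32.2% to 46.7% in Lexogen, and stayed out of library sizes. The reads carry no molecular identifiers, so limits for a count of 0 (3 counts per library) cover counting error only. No 2 libraries of a kit were identical.

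Members were matched by symbol, and positions came from the RefSeq gene table of the same assembly, in which 30271 gene names had a symbol. The members and all lists were chosen with earlier results of these data known. Times were compared within each kit with edgeR 4.0.16 in R 4.3.3 (filterByExpr, TMM, quasi-likelihood test of time, Benjamini-Hochberg adjustment over all genes), and DESeq2 1.42.0 was an alternative. The main test had time alone, so the 12 animals with both times were not paired in it. The intervals at 95% used 24 residual degrees of freedom. The scripts were tested on simulated data. From each pathway list, up to 4 genes called in Takara with the largest absolute log2 fold change were named, plus any called in Lexogen, and the 3 genes most alike to each member by Spearman rho of log2 CPM (prior count 2). Of the genes so chosen, 2 are not reported here, though the counts of their list include them. Per the labels, libraries with one animal number come from one calf. The correlation of their deviations from the time means was over 0.1 in 11 of 12 pairs in Takara (median 0.232) and 2 of 12 in Lexogen (median 0.0208). Animal 20 was left out because its labels and the study's sample list gave different times. The list numbers the calves in its own way. Taken in order of animal number, it has gaps for the same 5 animals as the labels (7, 15, 20, 23 and 29), each with the times exchanged, and the study's text has more morning than evening samples where the labels have 14 control and 15 heat stress RNA samples. Exchanging all labels would reverse the signs of the main fits and leave their sizes and p as they are, with animal 20 beside the libraries labeled heat stress. Which source is right was not settled here.

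Alternatives were the animal as a block, other scaling, filter, tool and strand, animal 20 in either group, each run of sample numbers alone, and leaving out each library.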

Additional observations from a re-analysis of the deposited data

Results flagged for a closer look

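The libraries of animal 20, labeled as heat stress but left out of the main comparisons, were set against the control libraries of their kit. In Takara, its MCL1 level of 2090 CPM and its BBC3 level of 16.9 CPM lay above every control library. In Lexogen, its MCL1 level of 1174 CPM, BBC3 level of 55.5 CPM and BCL2L1 level of 20.7 CPM did so. Below every control library lay its Takara levels of BCL2 (2.85 CPM), BCL2A1 (15.4 CPM), BAK1 (22.8 CPM) and BID (21.4 CPM) and its Lexogen level of BCL2A1 (14.6 CPM). Its other levels lay within the control range of their kit.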

How the results depend on the processing

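In Takara, MCL1 kept its call under all alternatives except animal 20 as a control, and BBC3 under all except that and run 2 alone. Counts of called members were 3 higher and 1 lower in Takara and 1 higher and 0 lower in Lexogen. With animal 20 as a control they were 0 and 0 in Takara and 0 higher in Lexogen. In run 1 alone, 0 were lower in Takara. In run 2 alone, 1 was higher and 0 lower in Takara, and 0 were higher in Lexogen. With the animal number as a replicate block, 0 were higher in Lexogen, where 46 genes were higher and 17 lower against 565 and 51. The paired fit changed no other call of a member. In Takara that edgeR fit gave log2 fold changes of 0.995 for MCL1 (adjusted p = 0.0171) and 0.96 for BBC3 (adjusted p = 0.0116). It gave 0.49 for PMAIP1 (adjusted p = 0.0408) and -0.47 for BID (adjusted p = 0.0289). In Lexogen, 2 members were higher with DESeq2, without the filter, with sense counts and with animal 20 as heat stress, and from 1 to 2 when a library was left out.

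Some uncalled members changed sign, namely BCL2L11 and BCL2L1 in both kits and BID and BAX in Lexogen. BCL2L11 in Takara was -0.20 with total gene counts, -0.035 with animal 20 as a control and -0.033 in run 2, and -0.082 to 0.082 without a library. BCL2L11 in Lexogen was 0.0031 in run 1 and -0.25 to 0.016 without a library, and its level difference between kits was -0.18 with total gene counts. BCL2L1 in Takara was 0.29 in run 1 and -0.20 to 0.00020 without a library, and in Lexogen 0.043 with animal 20 as heat stress and 0.31 in run 2. BID in Lexogen was -0.12 with the block, -0.12 in run 2 and -0.21 to 0.44 without a library. BAX in Lexogen was 0.41 in run 2 and -0.52 to 0.57 without a library. The cause was not tested, beyond the fewer samples of single runs.

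All genes called higher and lower in Takara were 2325 and 1321. They were 1303 and 2185 with total gene counts, 608 and 323 in run 2, and 0 and 0 with animal 20 as a control. In Takara 751 were lower in run 1, and 3604 were higher without the filter. In Lexogen they were 1701 and 1572 without the filter, 2 and 0 with animal 20 as a control, and 0 and 0 in run 2, where edgeR gave 1275 genes at an unadjusted p under 0.05. In Lexogen 190 were lower with DESeq2, 92 with animal 20 as heat stress, 23 in run 1 and 27 to 82 without a library. Members tested for a difference between kits or runs gave 0 calls with sense counts and with animal 20 as heat stress. The low BAX counts in Takara left its change untested.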
